A study of Mus musculus with 10 samples.

Results

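The amino acid transporter genes are the members of 7 solute carrier families (Slc1, Slc3, Slc6, Slc7, Slc36, Slc38 and Slc43). They were chosen by name among the genes of the deposited expression matrix, as those whose symbol belongs to 1 of these families. Of the 15686 genes in the matrix, 46 met this rule. The Slc6 family gave 13 members, Slc7 and Slc38 gave 10 each, Slc1 gave 6, Slc43 gave 3, and Slc3 and Slc36 gave 2 each. The question followed here was which of these carriers belonged to embryonic stem (ES) cells and which appeared in mesoderm, endothelium, or blood progenitors.

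HM-1 mouse ES cells were differentiated in serum, and nuclear RNA was sequenced at 5 stages, with 2 libraries for each and 10 in total. ES cells were grown with LIF in DMEM that held serum, glutamine, and a supplement of non-essential amino acids. Hemangioblast cells (HB) were the FLK1+ cells that magnetic beads recovered from embryoid bodies after 3 d in IMDM with serum, glutamine, ascorbic acid, and transferrin. Blast medium, used next, was also IMDM with serum, glutamine, ascorbic acid, and transferrin, and added D4T conditioned medium, VEGF, and IL-6. It held less serum and ascorbic acid and more of the supplement MTG than the embryoid body medium. The other stages were sorted after a further 2.5 d in blast medium. They were the first hemogenic endothelium (HE1; KIT+ TIE2+ CD41-), the second (HE2; KIT+ TIE2+ CD41+), and hematopoietic progenitors (HP; KIT+ TIE2- CD41+). No cell was genetically altered between groups, and all stages came from the same line. The medium changed together with the stage, so that effects of the medium and of the stage cannot be told apart. The study describes the libraries of a stage as independent biological replicates, and p-values measure only the spread between them. In these bulk samples, fewer cells of a type and less RNA per cell cannot be told apart, and nuclear RNA is neither cytoplasmic mRNA nor transport activity.

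As background, amino acids cross the plasma membrane only through carriers. Some are exchangers, which let in a large neutral or cationic amino acid against another that leaves the cell. Others use the sodium gradient to concentrate glutamine, alanine, glutamate, or glycine, and a further group works at the lysosome, where amino acid supply is read by the kinase complex mTORC1. Mouse ES cells are known for their dependence on threonine breakdown and on glutamine, and red blood cell precursors for their demand for glycine in heme synthesis.

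The libraries held 24920434 to 58782055 counts on genes, so that a floor of 3 counts lay between 0.0510 and 0.120 CPM (counts scaled to a common library size), which covers counting error only. Within a stage, the log2 CPM of the 2 libraries correlated across genes with r from 0.967 in HE1 to 0.994 in ES. The sorted populations carried the markers of their names. The summed level of 10 ES markers was 3527 to 3573 CPM in ES and 34.7 to 188 CPM elsewhere, that of 8 mesoderm markers was 2064 to 2523 CPM in HB against 17.1 to 18.4 CPM in ES and 391 to 1520 CPM in the later stages, and that of 8 blood markers was 1112 to 1659 CPM in HE2 and HP against 213 to 338 CPM in HE1. Libraries of the same sorted stage differed in makeup. The 8 endothelial markers summed to 3121 CPM in HE1 replicate 1 and 1863 CPM in replicate 2, and to 1881 and 1010 CPM in HE2. Among the defining endothelial genes, Cdh5 and Pecam1 were at means of 1114 and 618 CPM in HE1, while Cldn5 and Emcn reached only 7.90 and 9.91 CPM. The 6 smooth muscle and fibroblast markers summed to 824 CPM in HE1 replicate 1 and 1649 CPM in replicate 2, to 985 and 637 CPM in HE2, and to 1198 and 573 CPM in HP.

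Taken by the stage of the highest mean log2 CPM, ES cells held 24 of the 46 transporter genes, HB 5, HE1 7, HE2 2, and HP 8. Both libraries of the stage lay above the 8 others for 21 of the 24 ES members, for 4 of the HB, 3 of the HE1, 1 of the HE2, and 5 of the HP members. Over all tested genes, the highest mean fell on ES for 34.0% (26.3% with both libraries above the others), on HB for 17.4% (8.82%), on HE1 for 22.7% (9.88%), on HE2 for 10.3% (0.943%), and on HP for 15.6% (4.61%). The RNA of the 46 genes together amounted to 5035 ± 96.1 CPM in ES (SD, n = 2), 2462 ± 80.2 at HB, 2435 ± 232 at HE1, 2287 ± 133 at HE2, and 2154 ± 92.7 at HP. ES cells thus devoted the highest share of nuclear RNA to these carriers, and the levels of the 4 later stages lay close to one another.

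**Figure D1:**
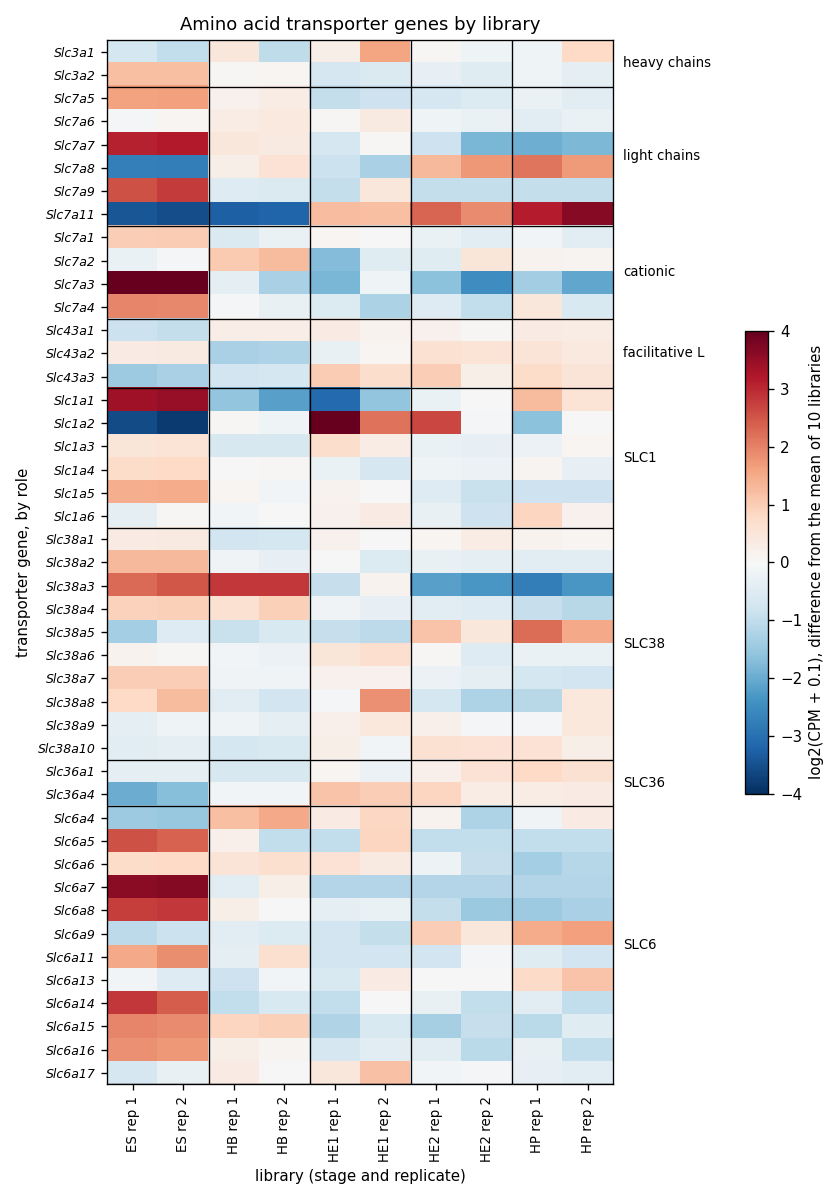
Level of 45 of the 46 transporter genes (rows, grouped by role) in each of the 10 libraries (columns), as log2(CPM + 0.1) minus the mean of the gene over the 10 libraries, with colors limited at 4 in either direction. Red marks a library above and blue a library below that mean; most rows are red in the ES columns, while Slc7a8 and Slc7a11 run from blue in ES to red in HP.

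Per exon length, in FPKM (CPM divided by the exon length in kilobases), 5 genes made up 62.9% of the summed level in ES cells. They were the cationic carrier Slc7a3 (137 ± 3.67 FPKM; SD, n = 2), the exchanger Slc7a5 (129 ± 2.46), the glutamine carrier Slc38a2 (119 ± 0.336), the heavy chain Slc3a2 (96.4 ± 0.470), and the neutral and cationic carrier Slc38a4 (95.9 ± 1.51). In HB, Slc38a4 came first with 87.5 ± 14.1 FPKM, which was 20.5% of the sum, followed by the taurine carrier Slc6a6 with 51.8 ± 3.03 and Slc7a5 with 49.2 ± 3.39 FPKM. HE1 was led by Slc6a6 (48.1 ± 4.79 FPKM) and Slc38a10 (47.5 ± 8.22 FPKM), whose levels differed by less than their spread. Slc38a10 alone led in HE2 with 67.7 ± 1.05 FPKM and in HP with 60.4 ± 9.56 FPKM. The leading carrier thus went from a plasma membrane importer of arginine and lysine in ES cells to a little studied member of the Slc38 family in blood progenitors.

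**Figure D2:**
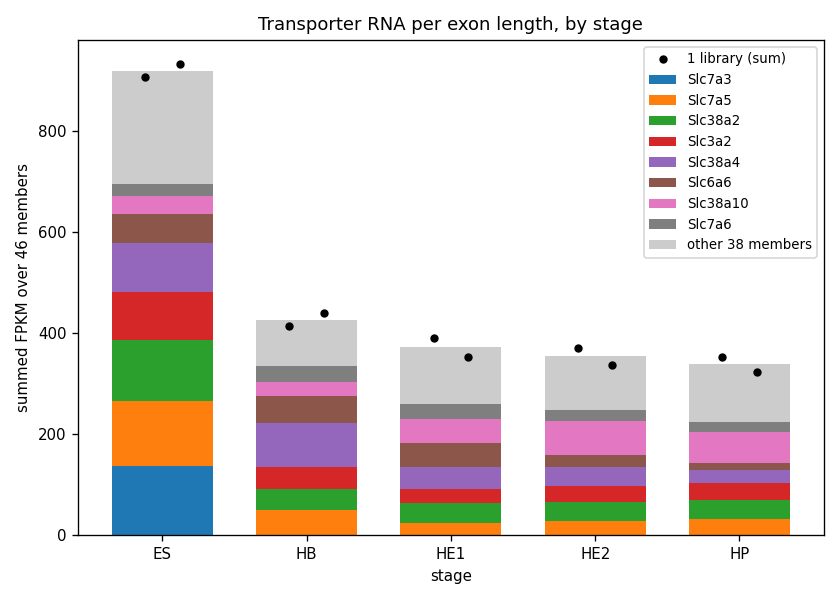
Summed FPKM of the 46 transporter genes at each stage (bars start at 0 and are means of 2 libraries, with the 8 genes that rank among the first 5 at some stage in color and the other 38 in light gray). Dots are the sums of single libraries. The sum is 919 FPKM in ES and 338 to 426 FPKM in the 4 later stages, and Slc7a3 is visible in the ES bar only.

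All 46 members passed the filter on low counts and were tested with edgeR among 22596 genes, which include genes outside the matrix. To be called, a gene had to differ by 2-fold or more with an adjusted p-value below 0.05. Under this rule 35 members were called in at least 1 of 6 comparisons, against a background of 52.8% of all tested genes. In ES against the mean of HB, HE1, HE2, and HP, 21 members were higher and 9 lower, where the background over all tested genes was 21.8% higher and 15.7% lower. The median log2 fold change of the members was 0.94 and that of all tested genes 0.02. From ES to HB, 20 members fell and 6 rose, against a background of 17.3% and 11.5%, with medians of −0.51 and 0.00. From HB to HE1, 6 rose and 8 fell, against 12.7% and 8.19%. From HE1 to HE2, 4 rose and 1 fell, against 3.26% and 5.39%. Over the whole transition from HE1 to HP, 5 rose and 6 fell, against 5.35% and 11.2%. The comparisons share libraries, so the counts are not independent of each other.

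**Figure D3:**
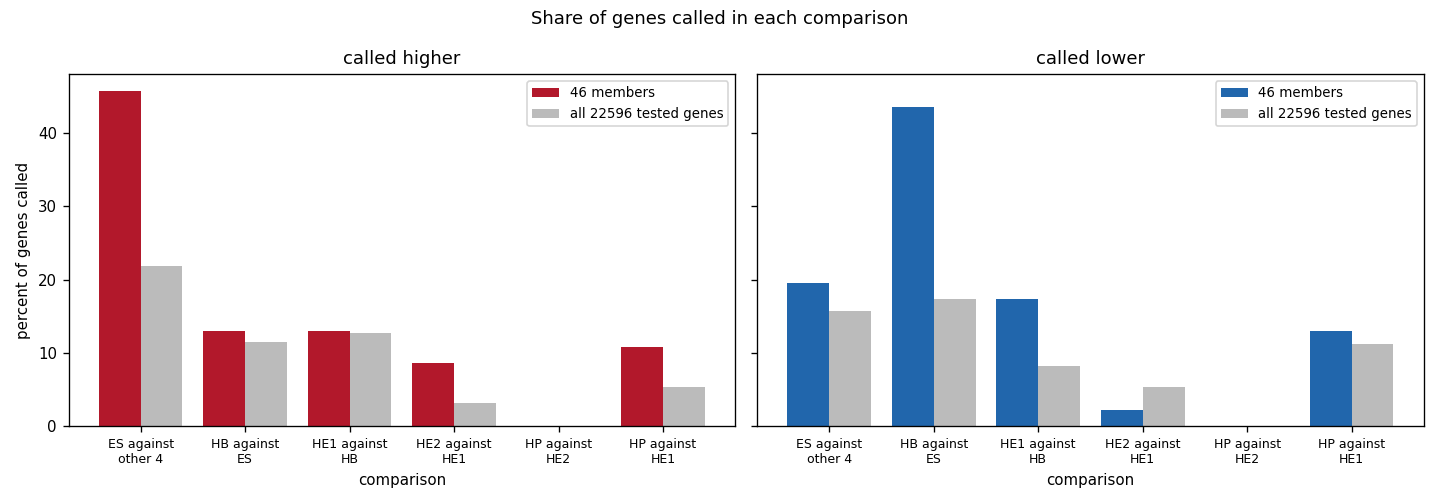
Percentage of the 46 members (colored bars) and of all 22596 tested genes (gray bars) called higher (left) or lower (right) in each of the 6 comparisons, by edgeR with an adjusted p below 0.05 and a difference of 2-fold or more. The widest gaps are in ES against the other 4 stages, where 45.7% of members are called higher against 21.8% of all genes, and in HB against ES, where 43.5% are called lower against 17.3%.

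The heavy and light chains form the heteromeric exchangers. The heavy chain Slc3a2 (CD98) carries any of several light chains of the Slc7 family to the plasma membrane, and the light chain decides what is carried. Slc3a2 was at 339 and 341 CPM in ES, 152 and 155 at HB, 93.0 and 99.0 at HE1, 116 and 106 at HE2, and 132 and 115 at HP. Every later library lay under both ES libraries, and the fall from ES to HB was 2.21-fold (log2 fold change −1.14 ± 0.13 SE, adjusted p = 9.62e-05). The light chain Slc7a5 (LAT1) exchanges large neutral amino acids such as leucine against glutamine. Its level was 473 and 486 CPM in ES, 174 and 191 at HB, 79.5 and 87.4 at HE1, 96.3 and 107 at HE2, and 128 and 113 at HP. It fell 2.63-fold from ES to HB (adjusted p = 3.77e-05) and again 2.19-fold from HB to HE1 (adjusted p = 2.9e-04), the only light chain apart from Slc7a8 that was called lower at that step. Slc7a6, which exchanges cationic against neutral amino acids, was not called in any comparison and ranged from 83.3 to 146 CPM over the 10 libraries.

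The close relatives Slc7a7 and Slc7a8 took opposite courses. Slc7a7 exports cationic amino acids and lies on chr14:54369442-54417780 (GRCm38, minus strand). It was at 104 and 112 CPM in ES, 16.8 and 15.7 at HB, 7.70 and 12.7 at HE1, 6.92 and 3.37 at HE2, and 3.13 and 3.50 at HP. ES libraries were apart from all others, and the level fell 6.63-fold from ES to HB (log2 fold change −2.73 ± 0.31 SE, adjusted p = 7.71e-05) and 3.10-fold from HE1 to HP (adjusted p = 0.00514; 0.0520 without HP replicate 1). Slc7a8 (LAT2), a second exchanger of neutral amino acids, lies 304 kb away on the same strand (chr14:54722209-54781946). It was at 1.14 and 1.12 CPM in ES, 9.72 and 12.2 at HB, 4.50 and 3.30 at HE1, 20.1 and 27.2 at HE2, and 36.4 and 27.1 at HP. All HE2 and HP libraries lay above those of ES, HB, and HE1, and HE2 and HP overlapped. Slc7a8 rose 9.68-fold from ES to HB (log2 fold change 3.28 ± 0.28 SE, adjusted p = 1.22e-05), fell 2.81-fold from HB to HE1 (adjusted p = 0.00186), and rose 6.09-fold from HE1 to HE2 (adjusted p = 6.33e-04).

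Slc7a11 (xCT) takes up cystine in exchange for glutamate and so feeds glutathione synthesis. It was at 0.355 and 0.316 CPM in ES, 0.397 and 0.423 at HB, 11.3 and 10.9 at HE1, 24.1 and 17.9 at HE2, and 42.1 and 60.0 at HP. The stages were ordered without overlap from HB onward. From HB to HE1 the gene rose 26.9-fold (log2 fold change 4.75 ± 0.29 SE, adjusted p = 5.51e-06) and from HE1 to HP a further 4.59-fold (adjusted p = 2.1e-04). Per length the gene stayed low, at 3.67 FPKM in HP against 34.9 FPKM for Slc3a2 and 32.4 FPKM for Slc7a5. The remaining light chain, Slc7a9, works with the heavy chain Slc3a1 in the kidney and gut. It was called higher in ES against the other stages at 1.01 and 1.23 CPM, with 0.165 CPM or less in each later library and no count in HE2 or HP. Slc3a1 itself was between 0.366 and 2.71 CPM in all libraries and was not called in any comparison.

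**Figure D4:**
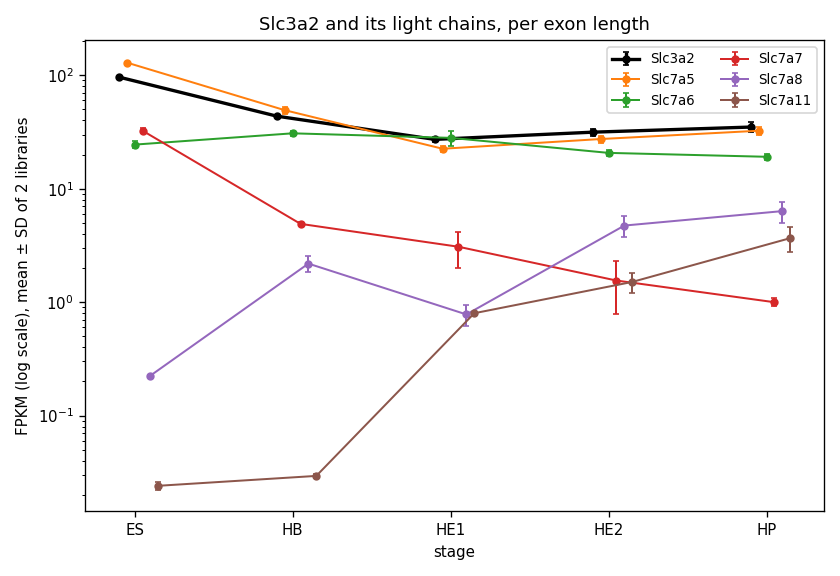
Mean FPKM (log axis) of the heavy chain Slc3a2 (black) and 5 light chains at each stage, with bars for the SD of 2 libraries. Slc7a7 falls from 32.5 FPKM in ES to 0.999 at HP while Slc7a8 goes from 0.225 to 6.35 and Slc7a11 from 0.0241 to 3.67; Slc3a2 and Slc7a5 stay the most abundant of the 6 genes in ES and HP.

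Slc7a11 is a textbook target of ATF4, the factor of the amino acid response, which binds the C/EBP-ATF response element (CARE). The promoters of RefSeq (GRCm38.p6; 250 bases before the start and 50 from it onward) were therefore searched on both strands for TGATGNAA and, separately, for the E-box CACGTG, which reads the same on both strands and is bound by factors such as MYC and TFEB. Promoters were matched by symbol for 33 of the 46 members, with 49 entries because of alternative starts. TGATGNAA was in 4 of the 49 (8.16%) against 3.97% of all 32851 promoters, namely those of Slc1a4 and Slc7a11 and both entries of Slc7a7. In Slc1a4, and at 1 place in the upstream entry of Slc7a7, the match ran across the start itself. The 2 entries of Slc7a7 overlap, and that match (chr14:54417938-54417945) is the same site as the only match of the downstream entry. The stretches with matches upstream of the start are shown 5′ to 3′ on the gene's strand, since these genes had contrasting courses, with the matches in capitals. That of Slc7a11 lies at chr3:50443623-50443709 and those of Slc7a7 at chr14:54418048-54418115 and chr14:54417908-54417952, all on the minus strand.
Slc7a11: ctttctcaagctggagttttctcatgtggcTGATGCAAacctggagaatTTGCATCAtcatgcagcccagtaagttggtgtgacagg
Slc7a7, upstream entry: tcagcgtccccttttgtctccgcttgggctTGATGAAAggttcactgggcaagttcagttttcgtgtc
Slc7a7, downstream entry: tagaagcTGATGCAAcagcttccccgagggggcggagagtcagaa
Slc7a11 held 2 matches in opposite directions, at −66 to −59 and −47 to −40 from the start. A match is a description of the letters and not evidence of binding.

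Among the cationic carriers, Slc7a3 had the largest fold change between ES cells and the other stages. Slc7a3 (CAT3; chrX:101079210-101086020, GRCm38, minus strand) takes up arginine and lysine. It was at 508 and 528 CPM in ES, 8.10 and 4.25 at HB, 2.90 and 9.31 at HE1, 3.32 and 1.81 at HE2, and 3.92 and 2.42 at HP. Every later library was under 10 CPM, and the fall from ES to HB was 84.2-fold (log2 fold change −6.39 ± 0.55 SE, adjusted p = 1.27e-05). The higher of the 2 HB and of the 2 HE1 libraries for Slc7a3 were also the higher ones for the ES marker Tdh, which was at 5.09 and 1.13 CPM in HB and 0.67 and 6.11 CPM in HE1. Tdh was chosen after its values were seen. The 10 ES markers summed to 188 and 133 CPM in HB and to 184 and 187 CPM in HE1. Their sum thus hardly differed between the HE1 libraries. Its largest parts in HE1 were Klf2 and Klf4, at means of 98.0 and 33.3 CPM. Klf2 was at a mean of 16.7 CPM in HB, so the sum need not follow remaining ES cells. The part of remaining ES cells in the low levels of Slc7a3 was not tested. Slc7a1 (CAT1), the general carrier of cationic amino acids, was at 122 and 125 CPM in ES, 41.1 and 51.0 at HB, 65.0 and 62.8 at HE1, 51.4 and 44.9 at HE2, and 56.6 and 46.03 at HP. All later libraries lay under both ES libraries, with a 2.68-fold fall from ES to HB (adjusted p = 7.42e-05).

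Slc7a2 (CAT2), which supplies arginine in macrophages and liver, peaked in mesoderm. Its levels were 4.68 and 5.39 CPM in ES, 11.7 and 13.5 at HB, 1.60 and 3.93 at HE1, 3.96 and 7.94 at HE2, and 6.14 and 6.04 at HP. Both HB libraries lay above all others. The rise from ES to HB was 2.51-fold (adjusted p = 0.0259), a call that was lost whenever an ES or HB library was left out (adjusted p up to 0.137), and the fall from HB to HE1 was 4.52-fold (log2 fold change −2.18 ± 0.43 SE, adjusted p = 0.00406; log2 fold change −2.97 without HE1 replicate 2). Slc7a4, a relative with no known transport activity, was called higher in ES at 3.28 and 3.21 CPM and was between 0.264 and 1.12 CPM later.

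The facilitative carriers of the Slc43 family need no ion gradient. Slc43a1 (LAT3), which carries branched-chain amino acids, was at 20.1 and 18.8 CPM in ES, 43.5 and 43.4 at HB, 45.4 and 39.9 at HE1, 41.0 and 37.3 at HE2, and 45.3 and 45.2 at HP. All 8 later libraries lay above both ES libraries. It rose 2.23-fold from ES to HB (log2 fold change 1.16 ± 0.14 SE, adjusted p = 1.2e-04) and was called in no later step. Slc43a2 (LAT4), with similar substrates, was at 61.7 and 63.5 CPM in ES, 19.97 and 20.8 at HB, 39.9 and 51.3 at HE1, 75.4 and 71.0 at HE2, and 69.9 and 64.3 at HP. It thus dipped in mesoderm, with a 3.07-fold fall from ES to HB (adjusted p = 2.44e-05) and a 2.24-fold rise from HB to HE1 (adjusted p = 3.87e-04; under 2-fold without HE1 replicate 2). Slc43a3, which is known to carry purine bases rather than amino acids, marked the sorted endothelium and what followed. It was at 12.4 and 13.6 CPM in ES, 20.04 and 20.6 at HB, 68.8 and 55.0 at HE1, 67.0 and 40.0 at HE2, and 56.0 and 48.3 at HP. Its rise from HB to HE1 was 3.04-fold (log2 fold change 1.61 ± 0.23 SE, adjusted p = 6.64e-04), with all 6 later libraries above both HB libraries.

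The Slc1 family holds the high affinity glutamate carriers and the neutral exchangers ASCT1 and ASCT2. Slc1a5 (ASCT2), which brings in glutamine, was at 94.6 and 98.4 CPM in ES, 36.6 and 32.5 at HB, 38.4 and 34.7 at HE1, 24.1 and 18.7 at HE2, and 19.6 and 19.6 at HP. ES cells lay above all others, with a 2.79-fold fall from ES to HB (adjusted p = 5.53e-05). Slc1a4 (ASCT1), for serine and alanine, was 1.93-fold higher in ES than in the mean of the other stages (adjusted p = 1.6e-04), short of the 2-fold limit, and ranged from 21.4 to 59.3 CPM.

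Slc1a1 (EAAC1), which takes up glutamate and aspartate, was at 16.7 and 17.8 CPM in ES, 0.430 and 0.254 at HB, 0.0841 and 0.429 at HE1, 1.22 and 1.52 at HE2, and 3.74 and 2.23 at HP. Both HP libraries lay above both HE2 libraries and these above HB and HE1. The fall from ES to HB was 50.6-fold (log2 fold change −5.66 ± 0.55 SE, adjusted p = 2.73e-05), and the later rise was 10.97-fold from HE1 to HP (adjusted p = 0.00178), which brought the gene back to less than 4 CPM. The HE1 libraries held only 2 and 13 counts, and the log2 fold change of 3.46 became 2.82 without HE1 replicate 1 and 5.10 without HE1 replicate 2. Slc1a3 (GLAST) was at 31.0 and 31.8 CPM in ES, 14.0 and 14.2 at HB, 35.8 and 27.1 at HE1, 18.2 and 17.5 at HE2, and 18.8 and 23.1 at HP. It fell 2.23-fold from ES to HB (adjusted p = 6.38e-04) and rose 2.23-fold from HB to HE1 (adjusted p = 0.00116; under 2-fold without HE1 replicate 1).

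Slc1a2 (GLT-1), the main glutamate carrier of astrocytes, varied widely between the libraries of a stage. It was at 0.0887 and 0.0574 CPM in ES, from 5 and 2 counts, then at 2.22 and 1.92 at HB, 45.9 and 10.1 at HE1, 14.3 and 2.06 at HE2, and 0.616 and 2.19 at HP. Both HE1 libraries were above every HB and HP library, but the HE1 libraries differed from each other more than 4-fold. edgeR gave a 25.9-fold rise from ES to HB (log2 fold change 4.70 ± 1.29 SE, adjusted p = 0.0141; 0.134 with limma-voom), a 13.5-fold rise from HB to HE1 (3.76 ± 0.94, adjusted p = 0.0125), and a 20.3-fold fall from HE1 to HP (−4.35 ± 0.97, adjusted p = 0.00958). The first call was lost without either ES library, the second without either HB library or without HE1 replicate 1 (adjusted p up to 0.0917), and the third without HP replicate 1 (adjusted p = 0.0883). The size also moved with single libraries, from a log2 fold change of 2.25 without HE1 replicate 1 to 4.48 without HE1 replicate 2 for the rise from HB to HE1, and from −5.49 without HP replicate 2 to −2.84 without HE1 replicate 1 for the fall from HE1 to HP. In HE1 and HE2 the library with more Slc1a2 was also the one with more RNA of the 8 endothelial markers (3121 against 1863 CPM and 1881 against 1010 CPM). The same held for the 8 mesoderm markers (1520 against 977 CPM and 1039 against 689 CPM) and the 6 erythroid markers (544 against 267 CPM and 2205 against 1696 CPM). The part of cell makeup in this difference was not tested. Slc1a6, a cerebellar glutamate carrier, was between 0.349 and 1.32 CPM and was not called.

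The Slc38 family (SNAT) holds sodium-coupled carriers of glutamine and other neutral amino acids at the plasma membrane and, in Slc38a7 and Slc38a9, at the lysosome. Slc38a2 (SNAT2) had the highest CPM of the members in ES. It was at 1053 and 1057 CPM in ES, 390.1 and 341 at HB, 433 and 293 at HE1, 353 and 333 at HE2, and 321 and 322 at HP. Its later levels lay between 293 and 433 CPM, and the fall was confined to the step from ES to HB among the steps tested (2.89-fold; log2 fold change −1.53 ± 0.19 SE, adjusted p = 1.45e-04). Slc38a1 (SNAT1) was at 327 and 335 CPM in ES, 152 and 157 at HB, 289.7 and 262 at HE1, 271 and 317 at HE2, and 286 and 274 at HP. It dipped in HB by 2.14-fold (adjusted p = 1.72e-04), and its 1.79-fold recovery in HE1 (adjusted p = 0.00164) was short of the 2-fold limit.

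Slc38a4 (SNAT4), which also carries cationic amino acids, kept its level into mesoderm. It was at 404 and 413 CPM in ES, 330.1 and 415 at HB, 195 and 171 at HE1, 159.8 and 149 at HE2, and 113 and 99.6 at HP. The ES and HB libraries overlapped, and all libraries of the blast culture were lower. The fall from HB to HE1 was 2.03-fold (log2 fold change −1.02 ± 0.16 SE, adjusted p = 0.001) and dropped under 2-fold with total counts, with the genes of the matrix alone, without HB replicate 2, or without HE1 replicate 2. The 3 genes Slc38a1, Slc38a2, and Slc38a4 neighbor each other on chromosome 15, with gaps of 44.5 kb and 295 kb and no other gene of the matrix between them, and each had its highest mean level in ES.

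Slc38a5 (SNAT5), which carries glutamine, serine, and glycine, appeared in the blood progenitors. It was at 0.958 and 1.78 CPM in ES, 1.36 and 1.69 at HB, 1.35 and 1.22 at HE1, 5.94 and 3.59 at HE2, and 12.5 and 7.69 at HP. HE2 and HP libraries lay above all others, and the rise from HE1 to HP was 7.88-fold (log2 fold change 2.98 ± 0.44 SE, adjusted p = 0.00121). The 3.71-fold rise from HE1 to HE2 (adjusted p = 0.0235) was no longer called with only the libraries compared, without HE1 replicate 2, or without HE2 replicate 1 (adjusted p up to 0.113). In HE2 and in HP, replicate 1 held more Slc38a5 and also more RNA of 6 erythroid markers, which summed to 2205 and 1696 CPM in HE2 and 4745 and 2437 CPM in HP, against 544 and 267 CPM in HE1. The smooth muscle and fibroblast markers were also higher in replicate 1 of both stages, as given above. The part of these cells in the rise was not tested.

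The lysosomal glutamine carrier Slc38a7 was at 102 and 103 CPM in ES, 46.2 and 46.9 at HB, 57.6 and 57.2 at HE1, 43.6 and 39.7 at HE2, and 31.7 and 30.2 at HP, with a 2.199-fold fall from ES to HB (log2 fold change −1.14 ± 0.13 SE, adjusted p = 6.89e-05). Slc38a9, the lysosomal arginine sensor of mTORC1, was not called and ranged only from 21.4 to 37.7 CPM. Slc38a10 also was not called at the 2-fold limit, although all HE2 and HP libraries, at 344 to 439 CPM, were above those of ES and HB, at 180.3 to 226 CPM. Slc38a3 (SNAT3), a liver and kidney glutamine carrier, was at 5.37 and 6.28 CPM in ES and 8.0 and 7.94 at HB. It then was at 0.50 and 1.16 CPM in HE1, after a fall of 9.42-fold from HB (log2 fold change −3.24, or −3.97 without HE1 replicate 2; adjusted p = 4.09e-04). It fell 5.90-fold from HE1 to HE2 (adjusted p = 0.0179; up to 0.128 without HE1 replicate 2, without HE2 replicate 2, or with only the libraries compared) and ended at 0.0684 and 0.127 CPM in HP. Slc38a6 was between 6.57 and 15.0 CPM and Slc38a8 between 0.0952 and 1.52 CPM, with no call, although 6 alternatives, among them limma-voom, called Slc38a8 in ES against the other stages.

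The Slc36 family includes carriers that couple transport to protons, mainly at lysosomes. Slc36a4 was at 3.39 and 4.13 CPM in ES, 12.9 and 12.6 at HB, 30.2 and 27.2 at HE1, 25.3 and 16.9 at HE2, and 16.9 and 17.3 at HP. The order from ES to HB to HE1 held without overlap, with rises of 3.401-fold (log2 fold change 1.77 ± 0.22 SE, adjusted p = 1.58e-04) and 2.25-fold (1.17 ± 0.22, adjusted p = 0.0027). Slc36a1, which exports amino acids from the lysosome, was at 26.4 CPM in both ES libraries and at 59.7 and 52.7 CPM in HP. It was not called in any of the 6 comparisons, and the 1.72-fold increase from HE1 to HP had an adjusted p of 0.00853.

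The E-box CACGTG was in 6 of the 49 member promoters (12.2%), against 7.15% of all promoters, and no member promoter held both motifs. The 6 genes were Slc1a6, Slc36a1, Slc38a5, Slc38a7, Slc43a1, and Slc6a16, whose courses differed. The stretches of the lysosomal carriers Slc36a1 and Slc38a7 and of Slc38a5, which rose toward HP, are shown 5′ to 3′ on the gene's strand, with the E-box in capitals, as examples among the 6. They are at chr11:55204279-55204339 (plus strand), chr8:95853492-95853555 (minus strand), and chrX:8271321-8271380 (plus strand).
Slc36a1: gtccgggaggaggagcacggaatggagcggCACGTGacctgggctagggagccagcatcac
Slc38a7: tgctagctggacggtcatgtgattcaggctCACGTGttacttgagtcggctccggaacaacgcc
Slc38a5: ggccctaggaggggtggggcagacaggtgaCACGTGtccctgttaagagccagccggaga
The matches began at −31, −34, and −30, respectively, and Slc36a1 had a further match across its start. Those of the genes not shown began at −32 in Slc1a6, −40 in Slc6a16, and −64 in Slc43a1. Slc36a1 and Slc38a5 had their highest mean level in HP and Slc38a7 in ES.

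The Slc6 family couples transport to sodium and chloride and includes carriers of creatine, taurine, glycine, proline, GABA, and serotonin. Slc6a8, the creatine carrier (chrX:73673150-73682502, GRCm38, plus strand), had the smallest adjusted p-value of the members in ES against the other stages (11.3-fold; log2 fold change 3.50 ± 0.12 SE, adjusted p = 1.51e-08). It was at 312 and 323 CPM in ES, 53.0 and 45.6 at HB, 35.3 and 37.9 at HE1, 23.4 and 16.3 at HE2, and 16.4 and 18.3 at HP. ES, HB, and HE1 were ordered without overlap above HE2 and HP, whose libraries overlapped. The 2.11-fold fall from HE1 to HP (adjusted p = 0.00218) dropped under 2-fold without HP replicate 1. Slc6a6, the taurine carrier, was at 481 and 502 CPM in ES, 420.0 and 456 at HB, 436 and 379 at HE1, 254 and 154 at HE2, and 113 and 133 at HP. It fell at the passage from endothelium to blood, by 3.31-fold from HE1 to HP (log2 fold change −1.73 ± 0.22 SE, adjusted p = 6.58e-04). The 1.99-fold decrease from HE1 to HE2 (adjusted p = 0.0209) was just short of the limit and passed it under 6 of the alternatives.

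Slc6a9 (GLYT1), the glycine carrier that red cell precursors use for heme synthesis, was at 5.84 and 6.66 CPM in ES, 8.96 and 8.14 at HB, 7.11 and 6.21 at HE1, 24.0 and 16.6 at HE2, and 34.1 and 37.6 at HP. HP lay above HE2, and HE2 above the other stages, with no overlap. The rise was 3.05-fold from HE1 to HE2 (log2 fold change 1.61 ± 0.22 SE, adjusted p = 0.00269) and 5.39-fold from HE1 to HP (2.43 ± 0.22, adjusted p = 1.21e-04). Erythroid markers were higher at the same stages, as given for Slc38a5. The library with more of them (replicate 1) held more Slc6a9 in HE1 and HE2 and slightly less in HP. Their part in the rise of Slc6a9 was not tested. Slc6a15, a carrier of branched-chain amino acids and proline, was at 29.2 and 28.5 CPM in ES, 13.8 and 14.6 at HB, 3.20 and 4.95 at HE1, 2.96 and 3.90 at HE2, and 3.49 and 5.31 at HP. It fell 2.04-fold from ES to HB (adjusted p = 0.0116), which 7 alternatives did not call, and 3.46-fold from HB to HE1 (log2 fold change −1.79 ± 0.28 SE, adjusted p = 0.00116).

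The other members of this family described here were all under 9 CPM. The proline carrier Slc6a7 was at 2.66 and 2.75 CPM in ES, 0.0661 and 0.169 at HB, and had no count in the 6 libraries of HE1, HE2, and HP. Slc6a14, a carrier of neutral and cationic amino acids, was at 1.31 and 0.947 CPM in ES and at most 0.0991 CPM later. The glycine carrier of inhibitory neurons, Slc6a5, was at 1.06 and 0.918 CPM in ES and at most 0.264 CPM later, and the orphan Slc6a16 at 2.80 and 2.64 CPM in ES and between 0.286 and 0.860 CPM later. These 4 genes were called higher in ES against the other stages and lower in HB against ES. The second call was lost for Slc6a16 without any 1 of the ES and HB libraries (adjusted p up to 0.101) and for Slc6a5 under 6 alternatives, among them DESeq2, which also did not call Slc6a5 in ES against the other stages (adjusted p = 0.190). Slc6a11, a GABA carrier, was called higher in ES at 0.390 and 0.516 CPM. Slc6a4, the serotonin carrier, rose 12.1-fold from ES to HB (adjusted p = 0.00184) but only to 1.32 and 1.66 CPM. Slc6a13 and Slc6a17 were under 1 CPM in every library and were not called.

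The limit of 9 CPM, below which the study takes a gene as not expressed, was reached by 31 of the 46 members at some stage. Of the 35 members called, 25 reached it and 10 did not. Restriction to ES cells, defined as a call in ES against the other stages with at least 9 CPM in ES and under 9 CPM in each other stage, was met by 2 members, Slc7a3 and Slc1a1, against a background of 3.26%. New activation, a call of higher from a mean under 9 CPM, was met in HB from ES by 5 members (Slc1a2, Slc36a4, Slc6a4, Slc7a2, and Slc7a8) against a background of 8.64%. From HB to HE1 it was met by Slc1a2 and Slc7a11, against 9.36%, and from HE1 to HP by 4 members (Slc1a1, Slc38a5, Slc6a9, and Slc7a8) against 3.85%. Not all of these genes reached the limit after their rise. Slc1a2 and Slc6a4 were at means of 2.07 and 1.49 CPM in HB and Slc1a1 at 2.98 CPM in HP. Without ES replicate 1 or ES replicate 2 the count for HB was 3, and without either HB library the count for HE1 was 1.

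**Figure D5:**
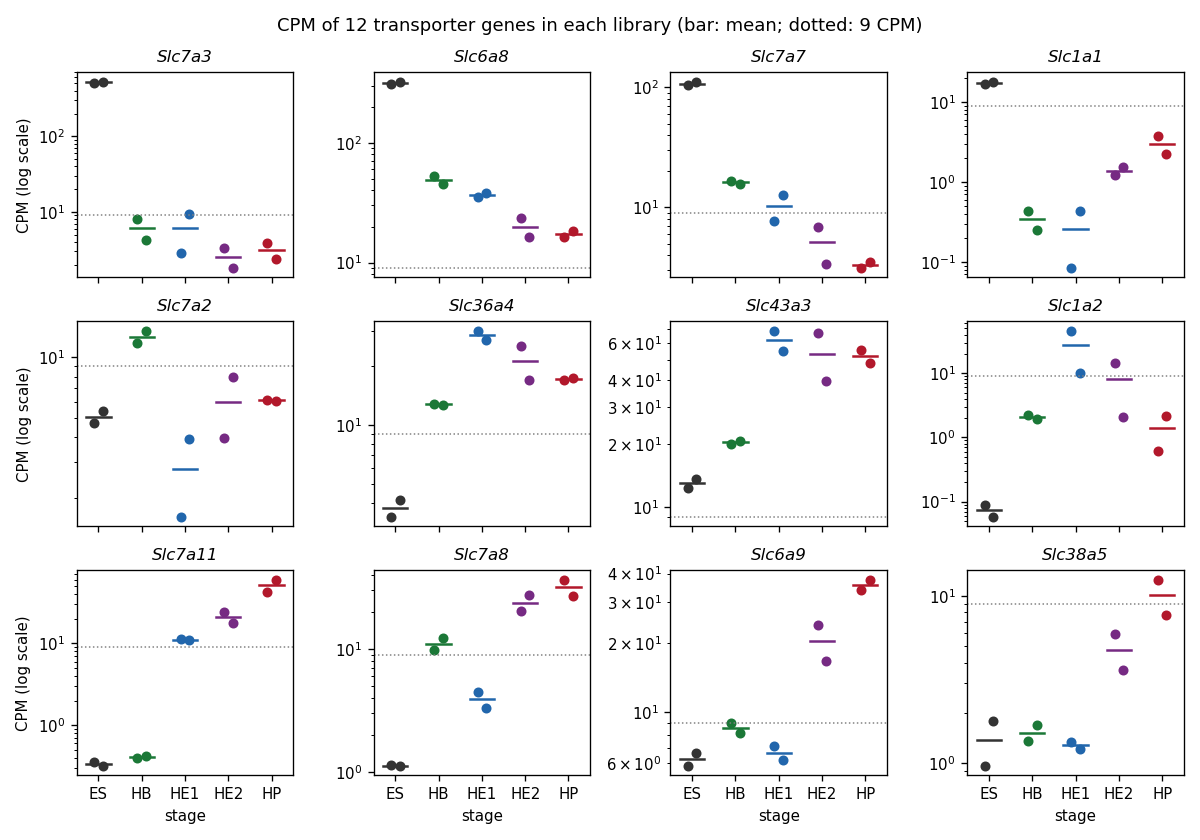
CPM (log axis, with a separate range in each panel) of 12 transporter genes in each of the 10 libraries; dots are libraries, short bars are means of the 2 libraries of a stage, and the dotted line marks 9 CPM. The upper row holds genes high in ES, the middle row genes that rise in HB or HE1, and the lower row genes that rise toward HP; the HE1 and HE2 libraries of Slc1a2 are far apart (45.9 and 10.1, and 14.3 and 2.06 CPM).

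From HE2 to HP no member was called, nor was any of the 22596 genes (0.0%) by edgeR, although 10 members had an unadjusted p under 0.05, of which 5 were higher and 5 lower in HP. Among all genes, 670 higher and 1113 lower had an unadjusted p under 0.05. limma-voom called 35 genes higher and 27 lower at this step and DESeq2 108 and 193, and the only member among them was Slc7a11, which was higher in HP (2.43-fold; adjusted p = 0.0722 with edgeR). The number of members called lower from HE1 to HP was 6 and depended on single libraries, with 11 without HE1 replicate 1 and 2 without HP replicate 1, while the number over all genes went from 2525 to 3684 and 1135. For HE2 against HE1, the 1 member called lower became 5 without HE1 replicate 1, 6 without HE2 replicate 1, and 0 without HE2 replicate 2, while the number over all genes went from 1217 to 2927, 2118, and 98.

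Genes that sense or use amino acids were followed in 4 lists. Of 24 tested genes for the use of threonine, glycine, serine, and glutamine, 10 were higher and 2 lower in ES against the other stages, where the background was 21.8% and 15.7% (median log2 fold change 0.72, against 0.02 for all tested genes). From ES to HB 8 fell and 2 rose, against a background of 17.3% and 11.5%. Threonine dehydrogenase, Tdh, was at 337 and 333 CPM in ES and at 6.11 CPM or less in each later library. Bcat1, which starts the breakdown of branched-chain amino acids, was at 160.3 and 155 CPM in ES, 48.9 and 49.3 at HB, and 8.12 and 4.01 at HP. The glutaminase Gls2 was at 31.3 and 31.6 CPM in ES and fell to 15.0 and 13.8 CPM in HB (adjusted p = 0.00922) and to 2.90 and 4.79 CPM in HE1 (adjusted p = 0.00112). Tph1, the first enzyme of serotonin synthesis, was at 0.66 and 1.21 CPM in HB with at most 1 count in the ES libraries.

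Of 22 targets of the amino acid response, 7 were higher and 2 lower in ES (background 21.8% and 15.7%), and from HE1 to HP 6 rose and 2 fell (background 5.35% and 11.2%). The transcription factor Cebpb was at 7.74 and 12.7 CPM in HE1 and 59.4 and 44.1 CPM in HP (log2 fold change 2.33 ± 0.31 SE, adjusted p = 8.14e-04), and Atf3 moved the other way, from 84.5 and 74.1 CPM in HE1 to 8.46 and 16.9 CPM in HP (adjusted p = 0.00643). Cth, which makes cysteine from cystathionine, was at 43.8 and 40.1 CPM in ES and at 4.95 and 4.26 CPM in HP. Trib3 had its highest levels in ES, at 12.9 and 13.3 CPM.

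Of 37 genes of mTORC1 and its amino acid sensors, 4 were higher and 1 lower in ES, against a background of 21.8% and 15.7%, with a median log2 fold change that rounded to −0.00. The GTPase Rragd was at 56.2 and 53.9 CPM in ES, 91.5 and 104 at HB, 7.95 and 11.2 at HE1, and 3.72 and 2.70 at HP, and fell from HB to HE1 (log2 fold change −3.35 ± 0.25 SE, adjusted p = 1.57e-05). The arginine sensor Castor1 was at 45.5 and 47.0 CPM in ES, as Rragb was at 41.4 and 40.8 CPM, and both fell from ES to HB and from HB to HE1. Tsc1, an inhibitor of mTORC1, rose from 80.2 and 72.3 CPM in HE1 to 163 and 271 CPM in HE2 (adjusted p = 0.00314). Of 19 tested carriers outside the 7 families, 2 were higher and 3 lower in ES (background 21.8% and 15.7%). The vesicular amine carrier Slc18a2 was at 0.21 and 0.26 CPM in ES and 17.2 and 15.9 CPM in HB. Its later levels were 60.1 and 12.1 CPM in HE1 and 59.8 and 52.0 CPM in HP. The vesicular GABA and glycine carrier Slc32a1 was at 0.59 and 0.52 CPM in ES and 8.20 and 9.47 CPM in HB. Its later levels were 0.88 and 0.50 CPM in HE1 and 3.60 and 4.39 CPM in HP. The mitochondrial aspartate and glutamate carrier Slc25a12 fell from 51.5 and 51.6 CPM in ES to 7.01 and 5.44 CPM in HB. It stayed under its ES level later, at 20.7 and 17.0 CPM in HE1 and 24.6 and 21.4 CPM in HP. The serine carrier Sfxn3 was highest in HE1 at 23.9 and 35.8 CPM.

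The count tables held 61 genes of the 7 families, of which 15 were outside the matrix. None of these reached a mean of 1 CPM at any stage, 3 passed the filter on low counts, and 2 had no count in any library. Exons of the members shared no base with another gene of the same strand, so that fragments counted on several genes at once did not add to their levels.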

How the data were processed

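Raw reads were filtered for rRNA with RiboDetector, trimmed with Trimmomatic, and aligned to mm10 with HISAT2 (v2.2.1) by the authors, who deposited counts of fragments per Ensembl gene from featureCounts (v2.0.1; reverse-stranded, exons, each overlapped gene counted). The authors also deposited a matrix with 1 normalized expression score per stage, used here only to choose the genes and as an alternative for the stage of the highest level. Counts of all 10 libraries entered 1 model in edgeR (v4.0.16; R v4.3.3) after filterByExpr, with TMM (factors 0.954 to 1.13), stage as the only term, and the quasi-likelihood F test, with Benjamini-Hochberg adjustment over 22596 genes; the common biological coefficient of variation was 0.226. The SE is the absolute log2 fold change divided by the square root of F. CPM used TMM-scaled library sizes, and FPKM divided CPM by exon length. Log2 CPM used a prior count of 2. Members called in some comparison that reach 9 CPM are given in each library, and other members by their range; up to 4 genes per pathway list were named, by the number of comparisons in which they were called. Alternatives were limma-voom (v3.58.1), DESeq2 (v1.42.0), total counts, no filter, matrix genes only, only the libraries compared, a replicate block, and leaving out each library. The fits were tested on simulated data. Members, lists, and motifs were chosen with earlier results of these data known. Protein sequences were not used here. Of the members, 1 is counted in the totals but not reported by name here.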

Additional observations from a re-analysis of the deposited data

How the results depend on the processing

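Counts of called members and each member's change were recomputed with limma-voom, DESeq2, total counts, no filter on low counts, the genes of the matrix alone, only the libraries compared (not for ES against the other stages), a term for the replicate number, and without each library in turn. Stages of the highest level were recomputed only with linear CPM, total counts, the authors' matrix, and without each library, and new activation with limma-voom, DESeq2, other limits, and without each library. No result changed its direction while called. Of the alternative values for counts of members, 287 stayed on the same side of their threshold or within 1.5 times, 14 became stronger, and 8 weaker. For changes of single members, over all 46 members, the numbers were 2512, 95, and 113. For HE2 against HE1, members called higher were 4 and became 2 with only the libraries compared. Members called lower were 1 there and became 3 with DESeq2, 2 with limma-voom, 3 with the matrix genes alone, 5 with no filter, 0 with only the libraries compared, 2 with the replicate block, and 2 with total counts. For HP against HE2, 1 member was higher with each of DESeq2, limma-voom, and no filter, and 1 was lower with no filter, against 0 each. The cause of these shifts was not tested. With total counts the median log2 fold change of all genes in HE2 against HE1 was −0.17 in place of −0.08.

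Leaving out each library in turn gave 21 to 23 members higher and 7 to 10 lower in ES against the other stages, 4 to 7 higher and 15 to 21 lower in HB against ES, and 5 to 6 higher and 6 to 8 lower in HE1 against HB. For HE2 against HE1 the ranges were 3 to 4 and 0 to 6, for HP against HE2 0 to 0 and 0 to 1 (without HE2 replicate 2), and for HP against HE1 5 to 6 and 2 to 11. New activation was met by 3 to 6 members in HB from ES, 1 to 2 in HE1 from HB, and 4 to 5 in HP from HE1. Members highest in ES were 22 to 24, in HB 4 to 6, in HE1 6 to 9, in HE2 2 to 3, and in HP 8 to 8. The lone library of a stage was then assumed to vary like the other stages.

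Whether same-numbered libraries of different stages came from the same culture was not tested. The correlations given next only describe deviations within stages of 2 libraries each. Deviations of same-numbered libraries correlated between −0.316 and 0.213 over 10 pairs of stages, with 2 of the 10 over 0.1. With the replicate block, 22 members were higher and 9 lower in ES against the other stages, and 6 and 19 in HB against ES. Over all genes, calls of lower in HE2 against HE1 went from 1217 to 766 with the block, 2864 with no filter, and 171 with only the libraries compared, where calls of higher went from 737 to 364. Depth limits the members under 1 CPM, where 3 counts correspond to 0.0510 to 0.120 CPM.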
